A study of Mus musculus with 8 samples.

Results

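The miRNAs described here are miR-142, miR-223, miR-150 and miR-342, which are made mainly in white blood cells, as they were counted in whole mouse hearts. They were found by name. Every table row of any species entry called mir-142, mir-142a, mir-142b, mir-223, mir-150 or mir-342 was taken, which gave 8 of the 764 hairpin entries listed over all hearts. All 8 entries were listed in each of the 8 hearts. No entry was called mir-142 alone. Summed over species, the entries gave 9 arms with counts of 680 in all. The hearts were those of C57Bl6/J wild-type animals, 4 to 6 weeks old, 4 female and 4 male, with no treatment named. Each heart gave 1 library of RNA enriched for small species. Each library is a separate animal, so the spread within a sex is that between hearts together with that of preparation, which cannot be told apart here. The sexes were the study's only comparison.

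A miRNA hairpin is cut into a 5' arm and a 3' arm, and either can be loaded into Argonaute to repress mRNAs that pair with its seed. miR-142 is made in nearly all blood cell lineages. miR-223 is best known from granulocytes, monocytes and platelets, where its 3' arm is the one usually studied. miR-150 is the classical miRNA of mature B and T lymphocytes, and miR-342 is made in several leukocyte lineages together with its host gene Evl. In a whole heart these RNAs can come from resident immune cells or from blood left in the vessels. In such bulk tissue, fewer cells of a type and less RNA per cell cannot be told apart.

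The mature sequences are shown because arm use and the overlap of both mir-142 hairpins carry the results. They are from RefSeq (GRCm38.p6), 5' to 3', with the seed (bases 2 to 8) in capitals, for 8 arms. miR-150-5p is named only.
miR-142a-5p: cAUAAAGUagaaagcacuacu
miR-142a-3p: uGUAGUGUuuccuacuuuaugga
miR-142b: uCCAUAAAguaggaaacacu
miR-223-5p: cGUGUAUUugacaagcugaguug
miR-223-3p: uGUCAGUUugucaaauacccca
miR-342-5p: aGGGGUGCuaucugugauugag
miR-342-3p: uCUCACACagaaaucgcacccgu
miR-150-3p: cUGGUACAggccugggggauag
All 8 seeds differ from each other, and for each of them 0 other mature miRNAs in the RefSeq table hold the same seed. The hairpins lie at 4 loci. Mir142 (chr11:87756864-87756927, plus strand) and Mir142b (chr11:87756841-87756955, minus strand) overlap on opposite strands within an intron of the noncoding gene Mir142hg. Mir223 (chrX:96242817-96242926, plus strand) lies in an exon of the noncoding RNA F630028O10Rik. Mir342 (chr12:108658620-108658718, plus strand) lies in an intron of Evl, and Mir150 (chr7:45121757-45121821, plus strand) overlaps no other annotated gene.

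Both mir-142 hairpins are printed because the mir-142b hairpin spans the whole mir-142a hairpin on the opposite strand. Capitals mark the mature arms.
Mir142: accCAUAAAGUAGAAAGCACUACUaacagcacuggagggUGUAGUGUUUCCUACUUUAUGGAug
Mir142b: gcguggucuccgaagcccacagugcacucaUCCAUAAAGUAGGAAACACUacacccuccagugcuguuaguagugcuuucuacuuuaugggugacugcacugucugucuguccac
The reverse complement of the 115-base mir-142b hairpin holds the whole 64-base mir-142a hairpin. All 20 bases of miR-142b pair with miR-142a-3p without a mismatch. miR-142b also resembles the other arm of the sense hairpin, with 16 of 18 bases equal to miR-142a-5p at the best ungapped shift. The longest run that both share is 10 bases.

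Library depth and cell type markers set the frame for these values. The 8 libraries held 29900500 to 38894987 counts on hairpins. Scaling factors (TMM) ran from 0.890 to 1.24, the highest in female replicate 3. Markers of heart cells were present in every heart, with 2615 to 8024 CPM (counts scaled to TMM-corrected library size) of the cardiomyocyte miR-499-5p and 60610 to 117800 CPM of the endothelial miR-126a-3p. The liver miR-122-5p had 1.045 to 6.80 CPM and of the neural markers miR-9-5p had 123 to 242 CPM, while miR-124-3p was not listed in any heart. Of the epithelial markers, miR-375-3p had 0 to 0.866 CPM and miR-200c-3p 11.1 to 16.8 CPM. The latter lies within the range of the miR-223 arms (7.44 to 22.1 CPM).

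Lymphocyte miR-150-5p was by far the most counted of these miRNAs, with 57.6% of the 93830 member reads and the 112th place among 562 tested miRNAs by mean CPM. Its levels were 199, 213, 247 and 228 CPM in female replicates 1 to 4 and 192.5, 192.4, 209 and 158 CPM in male replicates 1 to 4. The spread was small, with the highest heart 1.56-fold above the lowest, and 3 of 4 female hearts lay above every male heart. The other arm, miR-150-3p, stayed between 1.57 and 2.60 CPM. The 5' arm thus took 99.07% of the mature reads of the mir-150 entry.

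miR-342-3p came next among the other members, in the 193rd place. It had 36.1, 27.5, 43.2 and 24.6 CPM in female hearts and 40.5, 35.75, 27.0 and 26.5 CPM in male hearts, again in the order of the replicate numbers. High and low hearts were found in both sexes, and the groups overlapped. miR-342-5p was scarce at 0.351 to 3.796 CPM. The mouse entry listed 341 reads of this arm and a human mir-342 entry another 167, of which 92.2% matched the human mature sequence exactly. In 2 hearts, female replicate 1 and male replicate 1, the mouse entry listed 0 reads of this arm. As no count of reads unique to 1 entry lies between 1 and 9 in any table, such a 0 sets no limit on the level.

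Pooled over hearts, 52.5% of the mature reads of mir-142a were on its 5' arm, but single hearts ran from 0.5505 to 2.205 reads of the 5' arm per read of the 3' arm. miR-142a-5p had 20.5, 27.8, 17.6 and 11.0 CPM in female hearts and 20.6, 85.8, 22.1 and 32.6 CPM in male hearts. miR-142a-3p had 9.29, 32.5, 31.96 and 12.01 CPM in female hearts and 11.3, 64.2, 29.7 and 17.3 CPM in male hearts. Male replicate 2 held the highest value of both arms, 7.80-fold above the lowest heart for the 5' arm and 6.91-fold for the 3' arm. This heart-to-heart range was wider than that of miR-150-5p, miR-342-3p and both miR-223 arms.

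The miR-223 arms were also close to each other, at 15.8 CPM for the 5' arm and 11.95 CPM for the 3' arm over all hearts. miR-223-5p had 14.3, 13.8, 9.91 and 13.5 CPM in female hearts and 13.2, 20.03, 19.8 and 22.1 CPM in male hearts. Of the male hearts, replicates 2, 3 and 4 lay above every female heart, and male replicate 1 lay among them. miR-223-3p had 11.65, 17.0, 12.4 and 10.04 CPM in female hearts and 7.44, 16.9, 11.6 and 8.66 CPM in male hearts, with the sexes intermixed. A human mir-223 entry held 577 further 5' reads and a rat entry 408 further 3' reads, which are included.

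In the order of mean levels, miR-150-5p exceeded miR-342-3p in 8 of 8 hearts. miR-342-3p, miR-142b-5p, miR-142a-5p, miR-142a-3p and miR-223-5p followed, and each of these was above the next in only 4 or 5 of 8 hearts, with mean differences smaller than their SD. miR-223-5p was above miR-223-3p in 6 of 8 hearts. miR-223-3p exceeded miR-150-3p in 8 of 8, and miR-150-3p and miR-342-5p, the 2 least counted arms, were not separated (6 of 8 hearts, mean difference 0.116 CPM, SD 1.49).

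**Figure D1:**
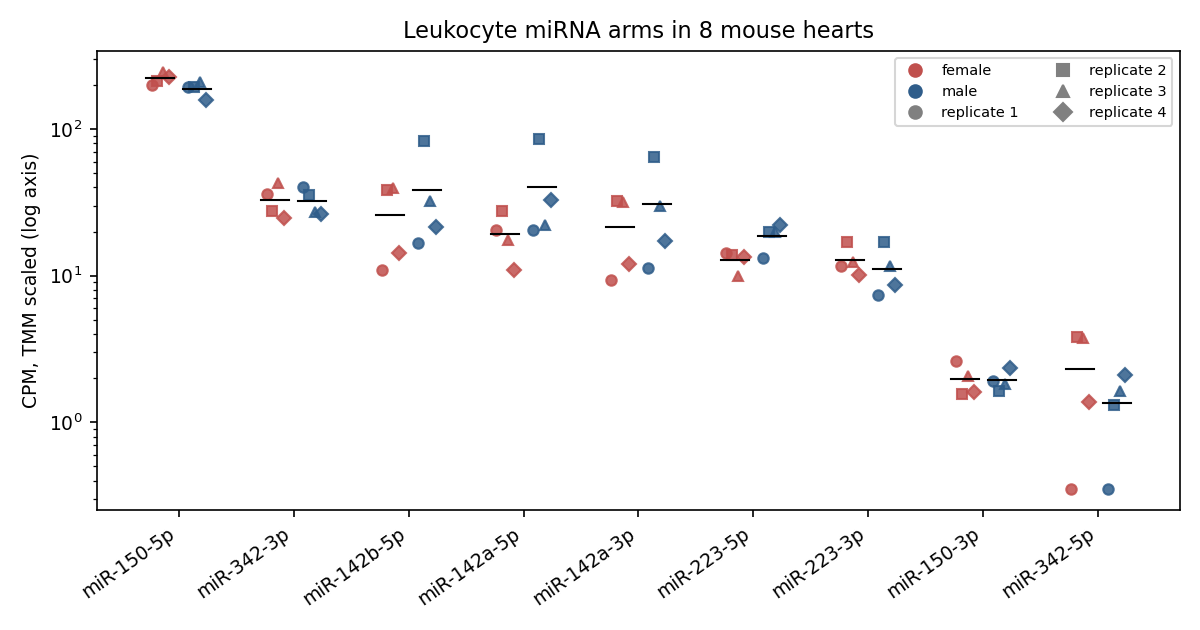
Levels of the 9 leukocyte miRNA arms in CPM (TMM scaled, log axis), with female hearts in red, male hearts in blue, 1 marker shape per replicate number and a black line at each group's mean. miR-150-5p stands above all other arms, and male replicate 2 (blue square) tops both miR-142a arms and miR-142b-5p.

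Most reads of the mir-142a hairpin were on neither listed arm. The tables give 21480 reads there as other, against 7614 on the 5' arm and 6897 on the 3' arm. Their share was 58.8% ± 6.84 of the hairpin's reads (SD, n = 8), lowest in female replicate 3 with 43.3% (95% Wilson interval 41.6 to 45.0) and highest in female replicate 4 with 64.7% (62.7 to 66.7). The intervals cover counting error only. By this share mir-142a ranked 7 among 186 hairpin names with at least 10000 reads, whose median was 2.95%. It was 17.8% ± 3.65 for mir-150, 6.51% ± 2.10 for mir-223 and 3.205% ± 1.72 for mir-342 (SD, n = 8).

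These other reads were mostly listed as exact, at 81.0% ± 4.88 (SD, n = 8). What sequence an exact other read matches is not given, so this share is not like that of the arms. The mir-142a hairpin has only 20 bases outside both RefSeq arms, 3 before the 5' arm, 15 between the arms and 2 after the 3' arm. A read longer than 15 bases on it therefore overlaps an arm. Where these reads start and end is not in the tables. On the arms, exact matches were 6.36% ± 4.97 of the reads for the 5' arm of mir-142a and 35.3% ± 4.36 for its 3' arm (SD, n = 8). Over all mature reads of a library they were 23.79% to 26.97%. They were 40.5% ± 3.16 for miR-150-5p, 41.2% ± 4.16 for miR-342-3p, 36.4% ± 2.28 for the 5' arm and 27.8% ± 3.07 for the 3' arm of the mouse mir-223 entry (SD, n = 8). miR-150-3p had 0 exact reads among 505.

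The antisense hairpin mir-142b was given nearly the same other reads as mir-142a. The counts were 21480 for mir-142a and 21481 for mir-142b over all hearts, and within a heart they differed by 0 to 3 reads. The exact other reads, 17230 and 17234, also differed by at most 3 in any heart. How strand was handled in counting is not given by the sources used here. Sense and antisense reads of this locus therefore cannot be told apart, and whether the same other reads were counted for both hairpins was not tested.

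Besides these, 8485 reads were listed on the 5' arm of mir-142b and 0 on its 3' arm. All 8485 were listed as unique to this entry, and 0 matched its mature sequence exactly. miR-142b-5p had 11.0, 38.4, 39.7 and 14.2 CPM in female hearts and 16.8, 83.0, 32.3 and 21.6 CPM in male hearts. The order of the hearts was close to that of miR-142a-3p, the arm it pairs with.

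The ratio of miR-142b-5p to miR-142a-3p counts was nearly constant over the hearts, at 1.24 ± 0.117 (SD, n = 8). It was 1.18, 1.18, 1.24 and 1.18 in female replicates 1 to 4 and 1.49, 1.29, 1.09 and 1.25 in male replicates 1 to 4. The count listed for miR-142b-5p was above that listed for miR-142a-3p in 8 of 8 hearts, while both ranged more than 7-fold in counts (8.10-fold and 7.41-fold from the lowest to the highest heart). The ratio of miR-142b-5p to miR-142a-5p ran from 0.536 to 2.26, a 4.21-fold range against 1.37-fold for the ratio to the 3' arm. These ratios were compared after their values had been seen, and no test was made.

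**Figure D2:**
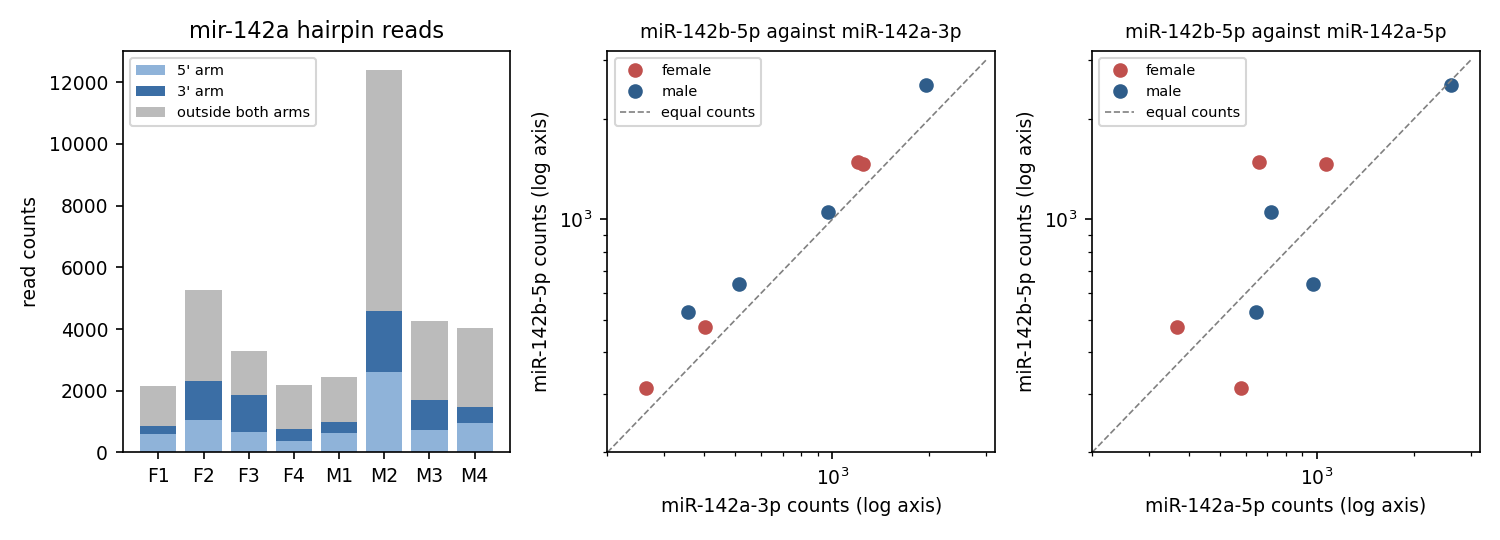
Left, read counts of the mir-142a hairpin per heart (F female, M male, with the replicate number), stacked as 5' arm, 3' arm and reads outside both arms. Middle and right, miR-142b-5p counts against miR-142a-3p and miR-142a-5p counts on log axes, 1 point per heart, with a dashed line at equal counts. The points run close to parallel to the line for miR-142a-3p (ratios 1.09 to 1.49) and scatter for miR-142a-5p (0.536 to 2.26).

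Whether these miRNAs differed between female and male hearts was tested within a fit over all 562 miRNAs. Among the 9 arms, 0 had an adjusted p under 0.05 by edgeR's quasi-likelihood fit with Benjamini-Hochberg adjustment over 562, where 0.178% of all miRNAs did (1 of 562, miR-182-5p, outside this group). At an unadjusted p under 0.05 there were 2 of 9 arms, where 5.34% of all miRNAs were. Both were lower in female hearts, where 1.96% of all miRNAs met that threshold in this direction. DESeq2 and limma-voom also called 0 of the 9, and called 3 and 1 of all 562. The groups overlapped for all 9, where 2.31% of all miRNAs had female and male hearts that did not overlap. Of the 9, 4 had a negative and 5 a positive fold change (female minus male), where 49.3% of all miRNAs had a negative one, with a median of 0.018 on the log2 scale against 0.005 over all miRNAs.

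The 2 arms were miR-142a-5p and miR-223-5p, both with the lower mean in female hearts. Female hearts averaged 19.2 ± 6.97 CPM of miR-142a-5p against 40.3 ± 30.8 CPM for males (SD, n = 4). Its log2 difference was -1.07 with SE 0.45, and the adjusted p from edgeR was 0.795, with a range over alternatives of 0.395 to 0.992. It was lower than in every male heart in 3 of 4 female hearts. Without male replicate 2 it was -0.38 (SE 0.32), and with exact matches only -0.38 (SE 0.81). For miR-223-5p the means were 12.9 ± 2.01 and 18.8 ± 3.86 CPM (SD, n = 4). The log2 difference was -0.54 with SE 0.23, and the adjusted p from edgeR was again 0.795 (0.483 to 0.992 over alternatives).

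The remaining 7 arms had larger p-values. The log2 fold changes were -0.51 (SE 0.53) for miR-142a-3p and -0.57 (SE 0.53) for miR-142b-5p, and without male replicate 2 they turned to 0.14 (SE 0.47) and 0.13 (SE 0.45). They were 0.24 (SE 0.18) for miR-150-5p, 0.20 (SE 0.28) for miR-223-3p and 0.02 (SE 0.25) for miR-342-3p. For the scarce arms they were 0.79 (SE 0.67) for miR-342-5p and 0.02 (SE 0.32) for miR-150-3p. Summed, the 9 arms made up 0.0371% ± 0.00960 of a female heart's mature counts and 0.0354% ± 0.0116 of a male heart's (SD, n = 4). The difference of 0.00168 points was within the spread between hearts (two-sided exact permutation test over 70 arrangements, p = 0.714, smallest possible 0.0286).

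**Figure D3:**
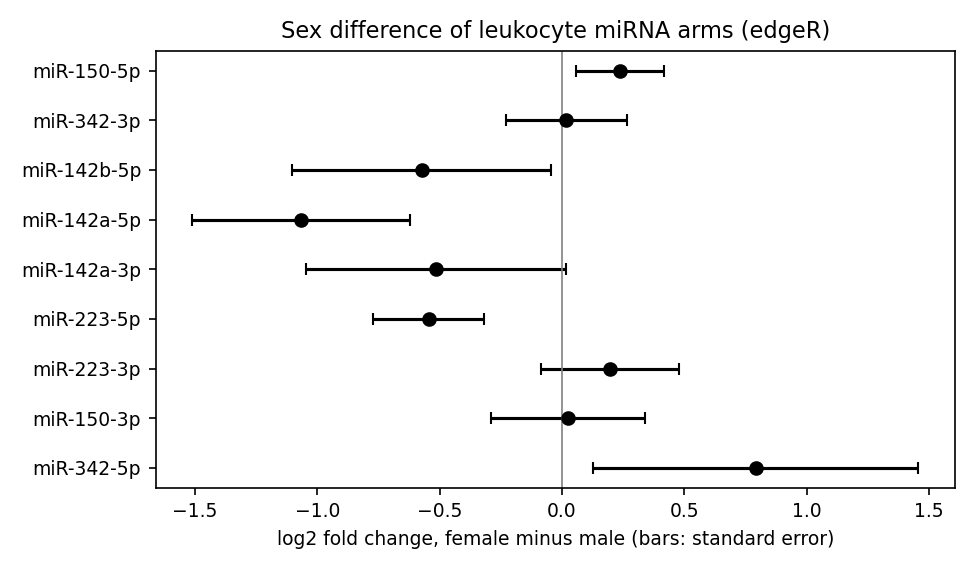
log2 fold changes (female minus male) of the 9 arms from the edgeR fit, with bars of 1 standard error. miR-142a-5p (-1.07) and miR-223-5p (-0.54) lie furthest from 0 relative to their errors, and none of the 9 passed over all miRNAs.

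When reads outside the arms were included, the sex difference of the mir-142a hairpin was about that of its 5' arm. The whole hairpin averaged 90.1 ± 32.5 CPM for females and 180.0 ± 141 CPM for males (SD, n = 4). The log2 difference was -0.998 with SE 0.46, and edgeR's adjusted p over 454 hairpins was 0.757. Male replicate 2 held 388 CPM, and the other male hearts 76.7 to 134 CPM.

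Arm use within a hairpin was compared by the log2 ratio of 5' to 3' counts, which does not depend on library scaling. For mir-223 it was 0.298, -0.300, -0.319 and 0.424 in female and 0.824, 0.244, 0.774 and 1.348 in male hearts. In 3 of 4 male hearts the 5' arm was favoured more than in any female heart. The difference was -0.77 (SE 0.31, limma adjusted p = 0.685 over 128 hairpins), where 0.0% of hairpins passed and 3.12% had an unadjusted p under 0.05. It was -0.46 (SE 0.48) for mir-142a, 0.23 (SE 0.29) for mir-150 and 0.53 (SE 0.95) for mir-342. Leaving out 1 heart moved mir-142a from -0.84 (without female replicate 1) to -0.18 (without female replicate 3), and mir-150 from 0.05 (without male replicate 4) to 0.43 (without female replicate 1). The ratio of mir-142a varied widely within each sex, from -0.861 to 1.139 in female and from -0.431 to 0.913 in male hearts.

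Whether the myeloid and lymphoid members rose and fell together over the 8 hearts was examined on log2(CPM + 1) values. In the pair of miR-223-3p and miR-150-5p no relation was detectable, with Pearson's r of 0.328 (exact permutation p = 0.436, adjusted p over 11 relations 0.600) and Spearman's rho of 0.333 (exact permutation p = 0.428, adjusted p = 0.588). Without the 2 hearts farthest from the median of miR-223-3p, r was 0.274. With the mean of each sex removed, r was 0.180, and with hairpin totals, which sum both arms and the other reads, it turned to -0.462. With library size alone, without TMM factors, it was 0.615 (exact permutation adjusted p = 0.252), so its size depended on the scaling. The 4 hearts of 1 sex are too few for a correlation within it.

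The other arm of miR-223 gave the opposite sign. miR-223-5p and miR-150-5p had r of -0.766 (exact permutation p = 0.0223, adjusted p = 0.122) and rho of -0.738 (exact permutation p = 0.0458, adjusted p = 0.126). Without male replicates 2 and 4, r was -0.536. With the mean of each sex removed it was -0.548, and with library size alone -0.465. The difference between the 2 arms in this respect was not tested. miR-142a-5p and miR-150-5p had r of -0.502 (exact permutation p = 0.203, adjusted p = 0.320), and r was 0.605 for miR-142a-5p with miR-223-5p (exact permutation p = 0.101, adjusted p = 0.270). For these 2 pairs rho was -0.738 (exact permutation p = 0.0458, adjusted p = 0.126) and 0.762 (exact permutation p = 0.0368, adjusted p = 0.126). Without female replicate 4 and male replicate 2, r was -0.747 and 0.72. With the mean of each sex removed, r was -0.221 and 0.362. With library size alone, r of miR-142a-5p was -0.171 with miR-150-5p and 0.654 with miR-223-5p. miR-342-3p had r of 0.143 with miR-142a-5p, -0.503 with miR-223-5p and 0.210 with miR-150-5p, each with an adjusted p of at least 0.320 by the exact permutation test. These r were taken again without the 2 hearts farthest from the median of the partner of miR-342-3p. With miR-142a-5p, r of miR-342-3p was then -0.831 (without female replicate 4 and male replicate 2, exact permutation p = 0.0333, not adjusted). With miR-150-5p it was -0.940 (without female replicate 3 and male replicate 4, exact permutation p = 0.0222, not adjusted). Both signs thus rested on the hearts left out. With miR-223-5p, r of miR-342-3p stayed negative at -0.613 (without male replicates 2 and 4, exact permutation p = 0.194, not adjusted). On the arm counts of all 8 hearts, none of these 7 relations among the leukocyte miRNAs passed. With hairpin totals, chosen after seeing the data, mir-142a and mir-223 did (r 0.858, exact permutation adjusted p = 0.0138). This pair passed in 1 of 15 alternatives. Most reads of the mir-142a total are on neither arm, and it was not repeated without male replicate 2.

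One relation outside the group did pass. miR-142a-5p followed miR-451a-5p, the main miRNA of red blood cells, with r of 0.949 (exact permutation p = 2.73e-04, adjusted p = 0.003) and rho of 0.976 (exact permutation p = 3.97e-04, adjusted p = 0.00437). miR-451a-5p had 60.8, 161, 86.1 and 44.3 CPM in female replicates 1 to 4 and 123.5, 900.5, 148 and 367 CPM in male replicates 1 to 4. Male replicate 2 was highest and female replicate 4 lowest for both miRNAs. Without these 2 hearts r was 0.865 (exact permutation p = 0.0236). With the mean of each sex removed it was 0.947. Without male replicate 2 alone r was 0.894, and the adjusted p of 0.113 no longer passed in the 7 hearts left. With exact matches only r was 0.833 (exact permutation adjusted p = 0.0232), the lowest of all alternatives. The other arm, miR-142a-3p, was not tested against miR-451a-5p. Male replicate 2 was highest for it as well. Male replicate 4 had 17.3 CPM of miR-142a-3p with 367 CPM of miR-451a-5p, and female replicate 3 had 31.96 CPM with 86.1 CPM.

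The other leukocyte miRNAs were less close to miR-451a-5p, with r of 0.696 for miR-223-5p (exact permutation p = 0.054, adjusted p = 0.198), -0.593 for miR-150-5p (p = 0.123 by the same exact test, adjusted p = 0.270) and 0.013 for miR-342-3p (p = 0.976). Without male replicates 2 and 4, r of miR-223-5p was 0.323, and with the mean of each sex removed it was 0.383. The difference between these correlations was not tested. The erythroid list (4 hairpins) summed to 7028 to 11470 CPM in female and 8340 to 10840 CPM in male hearts, most of it from the miR-486 pair, which muscle also makes. What red cell content adds to the values of miR-142a was not tested.

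**Figure D4:**
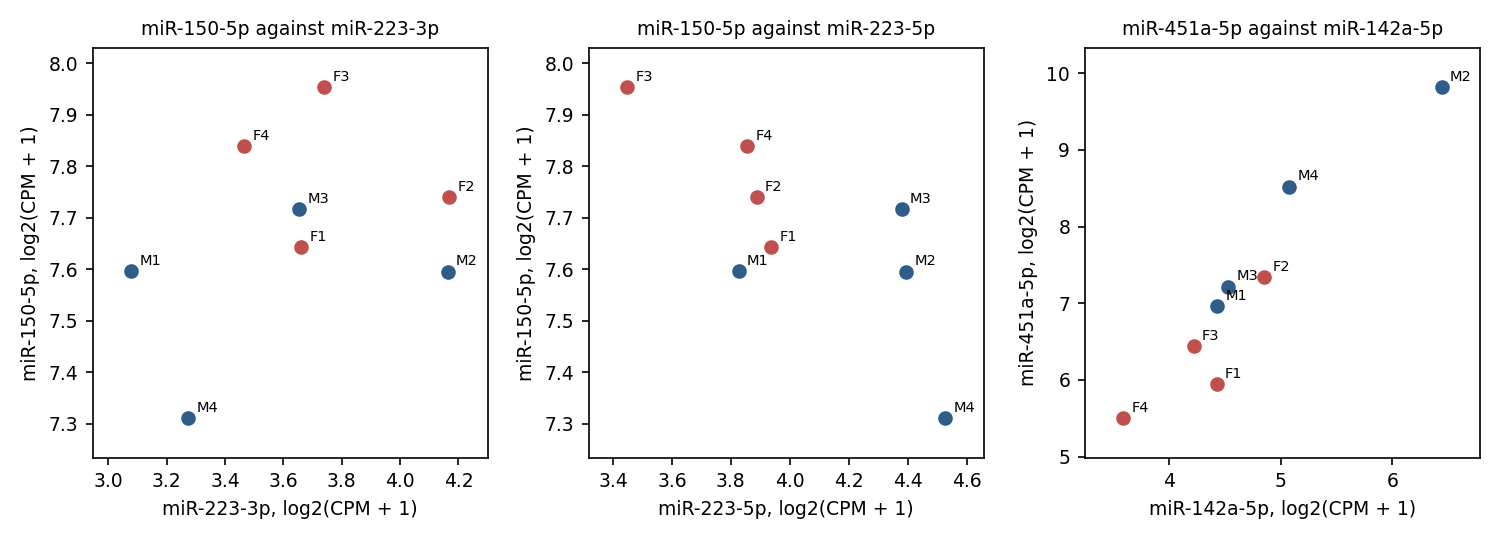
Values of log2(CPM + 1) for 3 pairs of miRNAs, 1 point per heart (F female, red; M male, blue; numbered by replicate). miR-150-5p shows r of 0.328 with miR-223-3p and -0.766 with miR-223-5p, and miR-451a-5p rises with miR-142a-5p (r of 0.949), with male replicate 2 at the top.

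By pattern over the 8 hearts, the miRNAs most like each main arm were taken from 276 others with at least 10 CPM on average, as a description without a test. miR-142a-5p was most like miR-451a-5p (r 0.949), miR-144-5p (0.904), which lies in the same red cell cluster, and miR-148b-5p (0.881). miR-223-5p was most like miR-221-3p (0.950), miR-547-3p (0.875) and miR-340-3p (0.836). miR-150-5p was most like miR-28a-3p (0.916), miR-125b-3p (0.887) and miR-744-5p (0.880). miR-342-3p was most like miR-1260a-5p (0.881) and miR-103b-2-5p (0.839), both human entries, and miR-151-5p (0.840). The closest miRNAs were thus different ones for each of the 4.

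Other blood miRNAs did not pass either in the same fit. Of 10 tested arms of miR-146, miR-155 and miR-181, which immune cells and other cells make, 0 passed in either direction (edgeR), 5 had the lower mean in female hearts, and the median log2 fold change was -0.07. The most abundant, miR-181a-5p, averaged 1987 ± 637 CPM for females and 1797 ± 139.5 CPM for males (SD, n = 4), above miR-150-5p. Of 7 erythroid arms 0 passed in this fit and 5 had the lower mean (median -0.14). With hearts of the same number taken as a block, a pairing that the labels do not name, 3 passed (miR-451a-5p, miR-144-5p and miR-144-3p). miR-451a-5p had the smallest p among them, averaging 88.0 ± 51.5 CPM for females and 385 ± 361 CPM for males (SD, n = 4). Its log2 difference was -2.13 with SE 0.60, and edgeR's adjusted p was 0.515. The value for miR-144-5p was -2.18 with SE 0.76, adjusted p from the same edgeR fit 0.795. The most abundant, miR-486b-5p, was at -0.10 (SE 0.19).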

How the data were processed

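Each heart's deposited table lists whole-number read counts for miRNA hairpins of mouse, human or rat, which the authors split, per the file headers, into mature 5', mature 3' and other reads, with exact matches counted beside each. The submitters' processing notes name STAR and mm10. The counter, the trimming, strand handling and any filter were not given in the sources used here. Members and lists were chosen with earlier results of these data known.

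Entries of 1 name and arm were summed over species, and numbered copies of a hairpin where under 50% of their mouse reads were unique to 1 copy, giving 680 units. Reads outside both arms (2.06% to 3.08% of counts) stayed out of tests, except where hairpin totals are named. Sexes were compared with edgeR 4.0.16 (quasi-likelihood test, TMM factors, filterByExpr with a minimum count of 10 and total of 15, 562 kept, Benjamini-Hochberg adjustment, threshold 0.05) in R 4.3.3. The standard error is the fold change over the square root of F. Arm ratios (pseudocount 0.5, a mean of at least 10 counts on each arm) used limma 3.58.1. CPM are TMM scaled. Shares and correlations (log2(CPM + 1)) used two-sided exact permutation tests. The family held 11 relations, 1 more than the 10 planned, since the plan took the most counted mouse arm of mir-223, which was the 5' arm, and also named the 3' arm. Fits were tested on simulated data. Named miRNAs are all member arms, the 3 most alike of each main arm, and of other blood lists the most abundant and any with an unadjusted p under 0.05. Positions and sequences are GRCm38, the assembly of mm10.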

Additional observations from a re-analysis of the deposited data

Results flagged for a closer look

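Of 38 groups of 4 hearts examined for a heart far from the other 3, 2 held one, where chance sets apart about 1 in 20. The share of exact reads on the 5' arm of mir-142a was 18.2% in female replicate 2, against 2.58% to 4.62% in the other female hearts. The ratio of miR-142b-5p to miR-142a-3p counts was 1.24 in female replicate 3, against 1.18 in each of the other 3 female hearts. The reads of the mir-142a hairpin outside both arms, 21480 over the 8 hearts, were outside the main measurement and stand far above a floor of 3 counts.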

How the results depend on the processing

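No member arm passed under any alternative in which it could be fitted (18 to 20 per arm). Hairpin totals, and leaving out female replicate 3 and male replicate 2 together in the sex comparisons, were chosen after seeing the data. Over all miRNAs, 1 passed, against 0 with RLE factors, upper quartile factors, library size alone, at least 10 CPM in 4 libraries, mouse entries only, rows as deposited, exact matches only, hairpin totals or without female replicate 3 and male replicate 2. There were 3 with DESeq2, and 0 to 2 when 1 heart was left out (2 without female replicate 3, 0 without any other heart). With the replicate block 4 passed, 3 of them other blood miRNAs (miR-451a-5p, miR-144-5p and miR-144-3p) where 0 passed without it. The numbers were not taken as pairs. The same-number correlations of deviations were 0.334, 0.279, 0.204 and -0.0148, so not every one was over 0.1, and 4 of 8 hearts correlated best with their own number. This was a rule and not a test, so the numbers may still mark something that hearts share. Whether the hearts were paired is not given in the labels. With the block, the SE of the log2 fold change was 0.233 instead of 0.533 for miR-142a-3p and 0.251 instead of 0.529 for miR-142b-5p. For miR-142a-5p the SE was 0.297 instead of 0.446, with a log2 fold change of -0.884 (edgeR adjusted p = 0.395). The SE was 0.237 instead of 0.228 for miR-223-5p and 0.196 instead of 0.181 for miR-150-5p. That of the mir-223 arm ratio was 0.235 instead of 0.305 (limma adjusted p = 0.36). The permutation tests of the correlations took all 8 hearts as exchangeable, whatever their number.

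The sign of miR-342-3p turned with RLE factors (-0.001), DESeq2 (-0.001), mouse entries only (-0.015), rows as deposited (-0.016), without female replicate 3 and male replicate 2 (-0.08), and ranged from -0.175 to 0.133 without 1 heart. That of miR-150-3p turned with limma-voom (-0.01) and without those 2 hearts (-0.06), with -0.271 to 0.108 without 1 heart. Ranges without 1 heart that crossed 0 were -0.871 to 0.139 for miR-142a-3p, -0.92 to 0.131 for miR-142b-5p, -0.008 to 0.467 for miR-223-3p (0.496 without those 2 hearts) and -0.134 to 1.302 for the mir-342 arm ratio. Over all hairpins, 1 arm ratio passed with at least 100 counts on each arm and without those 2 hearts, and 0 to 1 without 1 heart (1 without male replicate 2). The summed share turned to -0.00887 points with hairpin totals, and ranged from -0.00274 to 0.00710 without 1 heart; with the replicate block it was 0.00168 points (exact permutation p = 0.625).

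The relation of miR-142a-5p to miR-451a-5p ran from 0.894 to 0.978 without 1 heart, and at 0.890 (exact permutation adjusted p = 0.199) did not pass without female replicate 3 and male replicate 2. That of miR-223-3p to miR-150-5p became -0.462 with hairpin totals, where both arms of mir-223 are summed, and was 0.043 to 0.502 without 1 heart. With library size alone it was 0.615, and that of miR-223-5p to miR-150-5p was -0.465. That of mir-142a to mir-223 was 0.858 with hairpin totals and passed, which it did in 1 of 15 alternatives. Relations of miR-342-3p near 0 changed sign: with miR-142a-5p to -0.187 (exact matches only) and -0.037 (hairpin totals), and -0.163 to 0.339 without 1 heart; with miR-451a-5p to -0.022 (mouse entries only) and -0.144 (without those 2 hearts), and -0.302 to 0.173 without 1 heart; with miR-150-5p to -0.154 (without those 2 hearts), and -0.180 to 0.466 without 1 heart. The causes were not tested. Summing mir-142 with mir-142a was not run, as no such entry is listed. miR-150-3p and miR-342-5p rest on few counts per heart.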
